A study of Mus musculus with 6 samples.

Results

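The 10 genes described here were chosen by symbol as transcripts commonly induced when oxygen is low, namely the collagen hydroxylases *P4ha1*, *P4ha2*, *Plod1* and *Plod2*, and the stress genes *Ero1a*, *Ndrg1*, *Ankrd37*, *Vegfa*, *Ak4* and *Mxi1*. All 10 were found among the 16244 genes of the deposited RNA-seq table, and all 10 passed the minimum mean of 10 normalized reads that left 11908 genes for testing. Naive splenic CD4+ T cells of WT mice and of knockin mice carrying the RORγt N275D allele, both C57BL/6, were polarized for 3 days under pathogenic Th17 conditions, and 3 libraries were sequenced per genotype. The study's results name IL-6, IL-1β and IL-23 as the polarizing cytokines. The methods add TGF-β with antibodies that block IL-4 and IFN-γ, on plates that engage CD3 and CD28. Whether TGF-β was in these cultures is thus not settled by the sources used here. The same conditions are described for both genotypes. Mice were generally 6 to 12 weeks old. The labels call the mutant libraries only Mut, so whether their allele was homozygous is not given in the sources used here, nor is the oxygen level of the cultures. The WT mice were purchased, with C57BL/6NJ given in the reagent list. The knockin mice came from another laboratory according to the methods and are listed under a company, Biocytogen, in the reagent list, with no substrain given. Genotype and source of the mice therefore cannot be told apart. The study describes its replicates as biological, but whether the libraries of a genotype came from separate mice or from separate cultures of the same mice is not given in the sources used here, and the p-values below measure the spread between these libraries.

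Cells that run short of oxygen stabilize HIF-1α, which pairs with ARNT and binds short DNA elements near genes that help the cell to cope. The targets include enzymes that hydroxylate collagen chains in the endoplasmic reticulum (ER), oxidases that let proteins fold there, and factors that slow growth or recruit blood vessels. In activated T cells HIF-1α accumulates even where oxygen is not limiting, and it is known as a partner of RORγt in Th17 cells. Prolyl 4-hydroxylases and lysyl hydroxylases use molecular oxygen as a substrate, and their best known products are the hydroxyproline and hydroxylysine of collagen, a protein that T cells make little of.

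The core letters of a HIF-binding element are ACGTG or GCGTG, and the stretch before the start of 4 of the genes is printed to show where these letters lie, in a paralogue pair that changed by unequal amounts and in the pair of genes called lower. The sequences are those of RefSeq for GRCm38.p6, the build mm10, and run 5′ to 3′ over the 250 bases before a start in the table, with each match to ACGTG or GCGTG on either strand in capitals.
P4ha1, chr10:59323046-59323295, plus strand: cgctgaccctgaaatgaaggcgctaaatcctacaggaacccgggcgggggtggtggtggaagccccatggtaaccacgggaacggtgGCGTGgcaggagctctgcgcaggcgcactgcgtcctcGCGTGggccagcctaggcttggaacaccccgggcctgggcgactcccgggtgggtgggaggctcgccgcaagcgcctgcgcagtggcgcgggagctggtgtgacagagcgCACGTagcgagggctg
P4ha2, chr11:54100674-54100923, plus strand: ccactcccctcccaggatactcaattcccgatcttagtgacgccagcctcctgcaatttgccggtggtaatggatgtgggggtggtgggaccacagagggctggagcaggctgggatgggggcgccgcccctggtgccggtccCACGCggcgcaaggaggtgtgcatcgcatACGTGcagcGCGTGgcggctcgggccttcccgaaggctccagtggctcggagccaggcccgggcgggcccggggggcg
Ankrd37, chr8:45999851-46000100, minus strand: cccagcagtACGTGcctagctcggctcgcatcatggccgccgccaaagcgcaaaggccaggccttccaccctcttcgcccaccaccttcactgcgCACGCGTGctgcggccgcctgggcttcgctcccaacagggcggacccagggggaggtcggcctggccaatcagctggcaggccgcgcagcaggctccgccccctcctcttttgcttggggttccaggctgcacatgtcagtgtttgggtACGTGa
Ak4, chr4:101419039-101419288, plus strand: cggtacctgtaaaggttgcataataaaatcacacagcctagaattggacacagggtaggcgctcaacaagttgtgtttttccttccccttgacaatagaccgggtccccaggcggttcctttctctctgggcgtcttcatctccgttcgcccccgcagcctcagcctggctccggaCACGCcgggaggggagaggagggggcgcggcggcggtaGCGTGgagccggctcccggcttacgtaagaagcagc
Counted in bases before the start, the matches of *P4ha1* begin at 163, 126 and 16, those of *P4ha2* at 107, 78 and 69, and those of *Ankrd37* at 241, 155, 152 and 6, the middle matches of *Ankrd37* sharing letters. *Ak4* has matches at 74 and 36 in the window shown. A gene can have several starts: the windows of *P4ha2*, *Ankrd37* and *Ak4* precede starts that lie inside the longer gene spans of GENCODE given below. The windows of *Ankrd37* and *Ak4* also lie inside the RefSeq spans of these genes, and the window of *P4ha1* reaches into its RefSeq span. Of the window of *Ankrd37*, 17 bases lie in annotated *Ankrd37* exons. Of the window of *Ak4*, 12 bases lie in annotated *Ak4* exons. The promoter table held 14 windows for 8 of the 10 genes, not for *Plod2* and *Ndrg1*, and 12 of the 14 windows had a match, where 56.1% of the windows of all genes tested and 38.6% of all windows of the table had one. Several of the 14 belong to 1 gene and overlap. The window of *Vegfa* with matches has 218 of its bases in annotated *Vegfa* exons, and its window at the start of the gene span has none. Of the 3 windows of *Mxi1*, 1 with a match has all 250 bases in annotated *Mxi1* exons, and the window at the start of the gene span has no match. The window of *Ero1a* has 69 bases in annotated exons of that gene, and those of *Ak4* have from 12 to 104. The letters AGGTCA, the core of the element that ROR receptors bind, were found on either strand in 1 of the 14 windows of these genes, at *Ak4*, and in 10.8% of the windows of genes tested.

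Reads on genes ranged from 17659035 to 18510878 per library, and a normalized read is 1 read multiplied by a factor between 0.982 and 1.01 for its library. Among the WT libraries replicate 3 stood apart, with a median squared difference from WT replicate 2 of 3.05 times that of counting noise, where the other WT pair without it gave 1.37 and the N275D pairs 1.30 to 1.54. The T cell genes *Cd3e*, *Cd3g* and *Cd4* and the Th17 cytokines *Il17a* and *Il17f* were all abundant, and each had a mean of at least 1159 in both genotypes. Of the 7 T cell and Th17 markers tested, 3 were higher and 3 lower in N275D at an adjusted p under 0.05 from limma. Of those named, *Il17a* (log2 fold change 0.23) and *Il17f* (0.26) were higher, *Cd4* (-0.27) and *Cd3e* (-0.22) were lower, and *Cd3g* was not called. Over all genes tested, the shares were 24.7% higher and 26.1% lower.

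Of the 10 genes, 6 were higher and 2 lower in N275D than in WT Th17 cells at an adjusted p under 0.05 (limma on log2 of the normalized reads plus 1), where 50.9% of all genes tested were called, 24.7% of all being higher and 26.1% lower. *P4ha2*, *Ndrg1* and *Mxi1* rose by more than 2-fold, and none of the 10 fell by as much, where 3.59% of all genes were called at this size, 2.73% higher and 0.857% lower. *Ero1a*, *Plod2* and *P4ha1* also rose, *Ak4* and *Ankrd37* fell, and *Plod1* and *Vegfa* were not called. The median log2 fold change of the 10 genes was 0.41, beside 0.00 (rounded from -0.002586) over all genes tested. The set was named for these data with earlier results known, so these counts are a description. In 8 of the 10 genes the libraries of the genotypes did not overlap, 6 with N275D higher and 2 with N275D lower, as was so for 57.7% of all genes tested (28.1% higher and 29.6% lower). In bulk RNA, more transcript per cell and more of the cells that make it cannot be told apart.

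**Figure D1:**
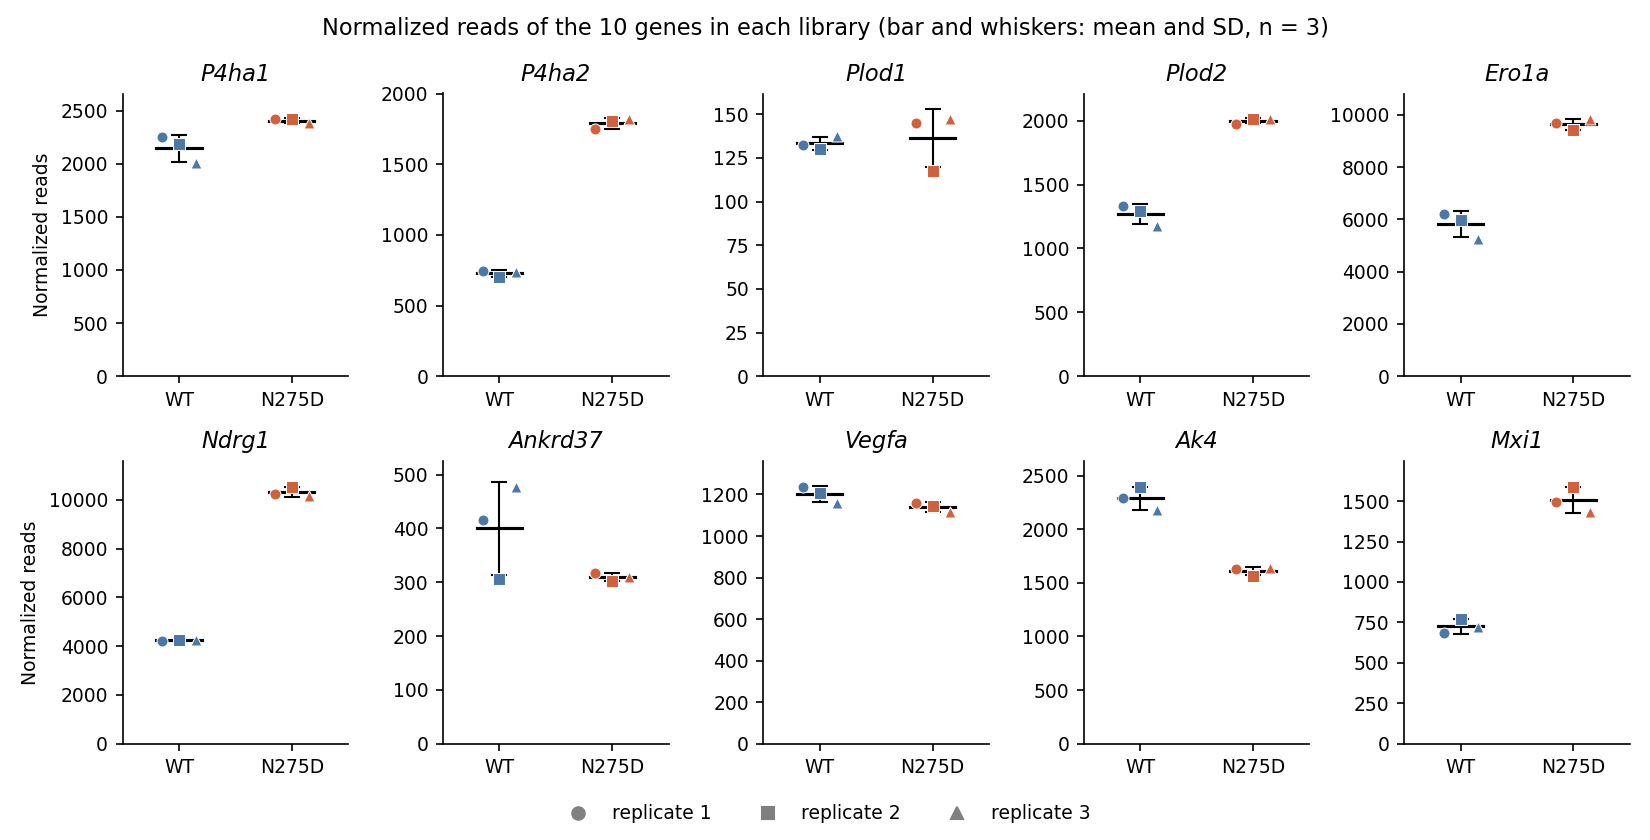
Normalized reads (vertical axes, each starting at 0) of the 10 genes in 3 WT and 3 N275D libraries. Points are libraries, with the shape giving the replicate number, and bars with whiskers are the mean and SD (n = 3). The genotypes stand clear of each other in *P4ha1*, *P4ha2*, *Plod2*, *Ero1a*, *Ndrg1*, *Ak4* and *Mxi1*, touch in *Vegfa* and overlap in *Plod1* and *Ankrd37*.

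The catalytic α subunits of collagen prolyl 4-hydroxylase rose by unequal amounts. *P4ha2* (chromosome 11, 54100095 to 54131665, plus strand, GRCm38) had 747, 701 and 739.6 normalized reads in the WT libraries and 1748, 1805 and 1820.1 in the N275D libraries. Every N275D library was more than 2-fold above every WT library, and the spread within a genotype was small. The means were 729 ± 24.6 and 1791 ± 38.0 (SD, n = 3 each), and limma put the log2 fold change at 1.30 ± 0.05 (SE) with an adjusted p of 4.49e-12, larger than that of 98.7% of the genes tested. *P4ha1* (chromosome 10, 59323296 to 59373304, plus strand), the α subunit that most cell types rely on, had 2248, 2187 and 2005 normalized reads in WT and 2417, 2419 and 2379 in N275D. All N275D libraries exceeded all WT libraries, with WT replicate 3 the lowest, but the gap was narrow. The means were 2147 ± 126 and 2405 ± 22.4 (SD, n = 3 each), a rise of 12.2% (0.17 ± 0.05 on the log2 scale, SE, limma adjusted p = 0.00651).

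Within each library the ratio of *P4ha2* to *P4ha1* does not depend on the library's scaling. On the log2 scale it was -1.59, -1.64 and -1.44 in WT and -0.47, -0.42 and -0.39 in N275D, a difference of 1.13 or a 2.19-fold higher ratio. The genotypes did not overlap, and the exact two-sided permutation test gave p = 0.1 (0.1 after Benjamini-Hochberg adjustment over 5 ratios), the smallest value that 3 libraries against 3 allow. Levels of different genes are compared per kilobase of annotated exon, taken over all annotated transcripts of a gene together. That length was 4114 bases for *P4ha1* (3 transcripts) and 6239 for *P4ha2* (15), so levels and shares depend in part on the annotation. Summed over the α subunits *P4ha1*, *P4ha2* and *P4ha3*, the level was 641 ± 30.9 normalized reads per kilobase in WT and 873 ± 4.31 in N275D (SD, n = 3 each). *P4ha2* made up 17.9%, 17.4% and 19.5% of that level in the WT libraries and 32.2%, 33.0% and 33.5% in the N275D libraries. *P4ha3* was too low to be tested, at 7.02 normalized reads in WT and 3.32 in N275D. *P4hb*, the protein disulfide isomerase that serves as the β subunit of the same enzyme, was far more abundant, at 16857 ± 441 normalized reads in WT and 18818 ± 157.0 in N275D (SD, n = 3 each), and rose by 0.16 on the log2 scale (limma adjusted p = 0.000682).

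Of the lysyl hydroxylases, *Plod2* rose and *Plod1* was not called. *Plod2* (chromosome 9, 92542223 to 92608428, plus strand), whose enzyme hydroxylates the telopeptide lysines that set the kind of collagen crosslink, had 1333, 1295 and 1179 normalized reads in WT and 1979, 2010.4 and 2013 in N275D. The N275D libraries lay within a narrow range and all stood well above the WT libraries, of which replicate 3 was the lowest. From means of 1269 ± 80.5 to 2001 ± 19.0 (SD, n = 3 each), it rose by 0.66 ± 0.05 on the log2 scale (SE, limma adjusted p = 2.05e-08). *Plod1* (chromosome 4, 147909753 to 147936767, minus strand), which acts on lysines of the collagen helix, had 132, 130.1 and 138 normalized reads in WT and 145, 117 and 147 in N275D. The N275D libraries lay on both sides of the WT libraries. The log2 fold change of *Plod1* was 0.03 with a 95% interval from -0.20 to 0.25 (adjusted p = 0.854 from limma), so that a change of the size seen in *Plod2* lay outside the interval, whereas one of the size seen in *P4ha1* did not. *Plod1* also had the fewest reads of the 10 genes, and at its lowest count of 117 reads counting alone gives an error of 9.25%.

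The log2 ratio of *Plod2* to *Plod1* was 3.32, 3.31 and 3.09 in WT and 3.76, 4.09 and 3.76 in N275D, a difference of 0.63 with no overlap (exact two-sided permutation p = 0.1, adjusted 0.1 over 5 ratios). The remaining family member, *Plod3*, named after its values were seen, had 1441 ± 72.7 normalized reads in WT and 1440 ± 41.7 in N275D (SD, n = 3 each) and was not called (log2 fold change -0.000291, adjusted p = 0.997 from limma). Of the summed level of the family per kilobase, *Plod2* made up 42.7%, 42.4% and 38.0% in WT and 51.1%, 52.9% and 52.8% in N275D. The summed level rose from 574 ± 6.72 to 710 ± 6.79 normalized reads per kilobase (SD, n = 3 each).

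**Figure D2:**
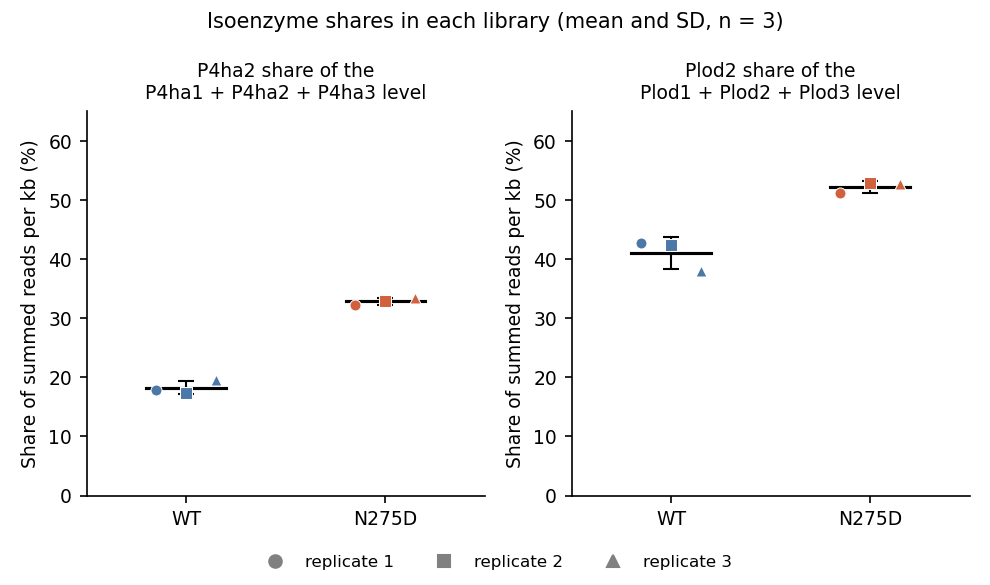
Share (%) of *P4ha2* in the summed reads per kilobase of *P4ha1*, *P4ha2* and *P4ha3* (left) and of *Plod2* in those of *Plod1*, *Plod2* and *Plod3* (right), by library. Points are libraries and bars with whiskers the mean and SD (n = 3): *P4ha2* goes from 18.3% ± 1.12 in WT to 32.9% ± 0.63 in N275D, and *Plod2* from 41.0% ± 2.66 to 52.3% ± 0.99.

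Of 19 other genes in a list of collagen modification and folding partners, 12 were tested, 4 were called higher and 4 lower. The median log2 fold change was -0.03, and over all genes tested 24.7% were called higher and 26.1% lower. *P3h3* (0.74) and *P3h1* (0.21), which encode prolyl 3-hydroxylase family proteins, were higher. *P3h2* (-1.32), a further prolyl 3-hydroxylase, *Loxl4* (-1.10), a lysyl oxidase family member, and *P4htm* (-0.32) were lower. *P4htm* encodes a transmembrane prolyl hydroxylase that is not known as a collagen enzyme, though the list counts it. *P3h3* and *Loxl4* had means of at most 24.3 normalized reads in either genotype. The collagen-specific chaperone *Serpinh1* was near absent, at 1.64 normalized reads in WT and 1.00 in N275D. Of the 36 genes in the table whose symbols name a collagen chain, a list made after the values had arrived, 11 reached the minimum mean, none was called higher and 4 were called lower. The most abundant of them was *Col5a3*, with 678 ± 20.3 normalized reads in WT and 477 ± 28.4 in N275D (SD, n = 3 each).

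*Ero1a* (chromosome 14, 45283087 to 45318771, minus strand, listed there under its older name), the ER oxidase that passes electrons from protein disulfide isomerase to oxygen, had 6194, 5991 and 5244 normalized reads in WT and 9679, 9427 and 9837 in N275D. The genotypes stood far apart, and WT replicate 3 was again the lowest library. The means were 5810 ± 500.2 and 9648 ± 207 (SD, n = 3 each), and the rise on the log2 scale was 0.74 ± 0.05 (SE, limma adjusted p = 5.97e-09). Its paralogue *Ero1b* had 268 ± 30.3 and 366 ± 17.5 normalized reads (SD, n = 3 each), 0.45 higher on the log2 scale (limma adjusted p = 0.000326). The log2 ratio of *Ero1a* to *Ero1b* was 4.39, 4.43 and 4.48 in WT and 4.80, 4.62 and 4.74 in N275D, a difference of 0.28 (exact two-sided permutation p = 0.1, adjusted 0.1 over 5 ratios).

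Genes that work beside *Ero1a* in oxidative folding were also higher more often than lower. Of 15 such genes 14 were tested, 9 were called higher and none lower, with a median log2 fold change of 0.21. Over all genes tested, 24.7% were called higher and 26.1% lower, with a median of 0.00 (rounded from -0.002586). Besides *Ero1b*, the largest rises were those of *Prdx4* (0.36), the ER peroxiredoxin that removes the peroxide made by the oxidases, and *Qsox1* (0.31), a sulfhydryl oxidase. Of 24 genes of the unfolded protein and integrated stress responses, all tested, 18 were called higher and 1 lower, *Canx* (-0.10), the calnexin lectin chaperone, with a list median of 0.29. The largest rises were those of *Vldlr* (1.23), a lipoprotein receptor, *Atf3* (1.19), a stress-induced transcription factor, and *Trib3* (0.92), a pseudokinase induced by ATF4. *Atf3* had 287 ± 42.6 normalized reads in WT and 652 ± 31.3 in N275D (SD, n = 3 each).

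*Ndrg1* (chromosome 15, 66929318 to 66969640, minus strand), a cytoplasmic protein induced by hypoxia, metal depletion and other stresses, had 4213, 4233 and 4257 normalized reads in WT and 10244, 10542 and 10146 in N275D. The WT libraries were nearly identical, and every N275D library was more than 2-fold above them. The means were 4234 ± 22.2 and 10311 ± 206 (SD, n = 3 each), the rise on the log2 scale was 1.28 ± 0.03 (SE, limma adjusted p = 1.06e-13), and the level per kilobase rose from above 87.1% to above 96.0% of the genes tested. The family members *Ndrg2* (1.01) and *Ndrg4* (0.67) were also called higher, and *Ndrg3*, named as the only other member, was not called (-0.13, adjusted p = 0.0527 from limma). A rise was called in 24.7% of all genes tested. *Ndrg2* had 453 ± 5.40 normalized reads in WT and 917 ± 74.1 in N275D (SD, n = 3 each).

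*Mxi1* (chromosome 19, 53310518 to 53375810, plus strand), which binds MAX and opposes MYC at E-box elements, had 683, 774 and 720.0 normalized reads in WT and 1496, 1589 and 1432 in N275D. Each N275D library exceeded each WT library. The means were 726 ± 45.5 and 1506 ± 79.0 (SD, n = 3 each), and limma gave a rise of 1.05 ± 0.06 on the log2 scale (SE, adjusted p = 3.69e-10), with a 95% interval from 0.93 to 1.17 that includes values under 2-fold. *Myc* itself, at 6169 ± 111 normalized reads in WT and 6952 ± 124 in N275D (SD, n = 3 each), rose by 0.17 on the log2 scale (limma adjusted p = 0.000585). The log2 ratio of *Mxi1* to *Myc* was -3.17, -3.02 and -3.07 in WT and -2.22, -2.10 and -2.30 in N275D, a difference of 0.88 without overlap (exact two-sided permutation p = 0.1, adjusted 0.1 over 5 ratios). Of the other 11 tested genes of the MYC and MAX network, 4 were called higher and 2 lower, with a median of 0.10. The shares over all genes tested were 24.7% higher and 26.1% lower. *Mycn* (1.41), a MYC paralogue at only 37.7 normalized reads in WT, and the MAX-binding repressors *Mxd4* (0.54) and *Mnt* (0.37) were higher, and *Mlx* (-0.28) and *Max* (-0.16), the shared dimer partners, were lower.

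*Ak4* (chromosome 4, 101419277 to 101466995, plus strand), a mitochondrial adenylate kinase known as a HIF-1 target, went the other way. It had 2293, 2397 and 2183 normalized reads in WT and 1631, 1567 and 1639 in N275D. All N275D libraries lay below all WT libraries. The means were 2291 ± 107 and 1613 ± 39.6 (SD, n = 3 each), or -0.51 ± 0.05 on the log2 scale (SE, limma adjusted p = 1.66e-07), lower than that of all but 3.91% of the genes tested. *Ak3*, the mitochondrial paralogue that uses GTP, had 865 ± 34.7 and 995 ± 29.6 normalized reads (SD, n = 3 each), 0.20 higher on the log2 scale (limma adjusted p = 0.00371). The log2 ratio of *Ak4* to *Ak3* was 1.36, 1.46 and 1.40 in WT and 0.69, 0.70 and 0.69 in N275D, a difference of -0.71 (exact two-sided permutation p = 0.1, adjusted 0.1 over 5 ratios). Of the 5 other adenylate kinases tested, only *Ak3* was called higher and 4 were called lower: *Ak7* (-1.17) and *Ak1* (-1.17) had the largest falls. Among all genes tested, 24.7% were called higher and 26.1% lower.

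*Vegfa* (chromosome 17, 46016993 to 46032369, minus strand), the growth factor that draws blood vessels into tissue, had 1237, 1209 and 1161.03 normalized reads in WT and 1161.02, 1145 and 1116 in N275D. The lowest WT library and the highest N275D library were nearly equal, so that the genotypes only just failed to overlap. The log2 fold change was -0.08 with a 95% interval from -0.18 to 0.02 (adjusted p = 0.188 from limma), an interval that leaves out any rise of the size called in *P4ha1*. Of 9 other ligand and receptor genes of the VEGF family in the table, 4 were tested: *Vegfb* was called higher (0.31), the co-receptor *Nrp1* was called lower (-0.77), and 2 were not called. For all genes tested the shares were 24.7% higher and 26.1% lower. The receptor genes *Flt1*, *Kdr* and *Flt4* had means of at most 4.66 normalized reads in either genotype.

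*Ankrd37* (chromosome 8, 45996902 to 46005707, minus strand), an ankyrin repeat protein of little known function that is strongly induced by hypoxia in many cell types, was the least settled of the called genes. It had 416, 307 and 477 normalized reads in WT and 316, 302 and 309 in N275D. WT replicate 2 lay within the N275D range and the other WT libraries lay above it, so the genotypes overlapped. The means were 400.0 ± 86.5 and 309 ± 7.25 (SD, n = 3 each), limma gave -0.35 ± 0.11 on the log2 scale (SE, adjusted p = 0.0179), and the exact two-sided permutation test gave p = 0.3. Without WT replicate 3 the value was -0.21 (adjusted p = 0.0602 from limma), without WT replicate 2 it was -0.53 (adjusted p = 4.89e-05), and the call was also lost without WT replicate 1 (adjusted p = 0.0687), N275D replicate 2 (0.0562) or N275D replicate 3 (0.0516). Its annotated exons share 57 bases with *Ufsp2* and 349 bases with *Lrp2bp* on the opposite strand. The libraries were strand-specific, but whether the counting used the strand is not given in the sources used here, and *Ufsp2*, named for this overlap, went from 845 to 1052 normalized reads (log2 fold change 0.32, adjusted p = 0.000422 from limma).

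**Figure D3:**
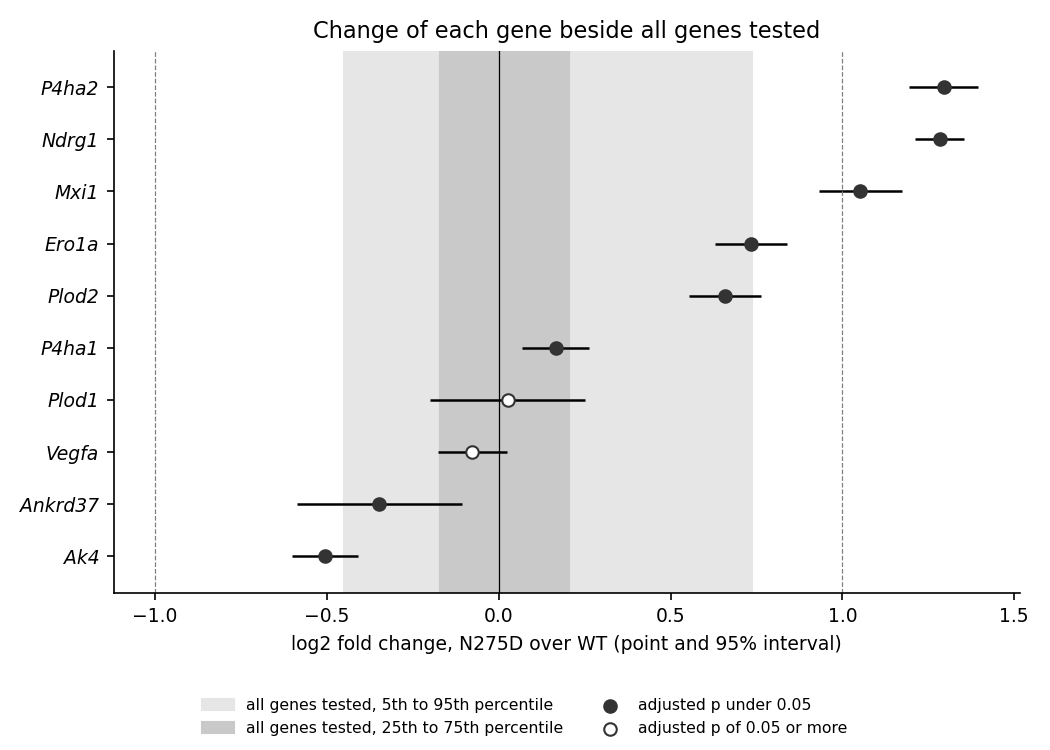
Log2 fold change of N275D over WT (horizontal axis) for each of the 10 genes, with the 95% interval from limma as a line. Filled points passed an adjusted p of 0.05, grey bands show the central ranges of the 11908 genes tested (5th to 95th percentile, -0.45 to 0.74), and dashed lines mark 2-fold. *P4ha2*, *Ndrg1* and *Mxi1* lie to the right of the bands and *Ak4* to the left.

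By level per kilobase of exon, the order in WT was *Ero1a* (1099 ± 94.6), *Ndrg1* (642 ± 3.36), *P4ha1* (522 ± 30.7), *Ak4* (493 ± 23.1), *Vegfa* (281 ± 9.02), *Ankrd37* (260 ± 56.2), *Plod2* (235 ± 14.9), *P4ha2* (117 ± 3.95), *Mxi1* (106 ± 6.66) and *Plod1* (19.7 ± 0.563), in normalized reads per kilobase (SD, n = 3 each). The neighbours *P4ha1* and *Ak4*, *Vegfa* and *Ankrd37*, *Ankrd37* and *Plod2*, and *P4ha2* and *Mxi1* overlapped in their libraries. In N275D *Ero1a* (1825 ± 39.1) and *Ndrg1* (1563 ± 31.2) kept the top places ahead of *P4ha1* (585 ± 5.44), and *Plod2* (371 ± 3.53) passed *Ak4* (347 ± 8.53). *P4ha2* (287 ± 6.09) moved up past *Vegfa* (266 ± 5.32), *Mxi1* (221 ± 11.6) past *Ankrd37* (201 ± 4.71), and *Plod1* (20.2 ± 2.45) stayed last. No neighbours overlapped in N275D.

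The genes of the oxygen-sensing machinery and other hypoxia-induced genes are given for context. Of 10 HIF subunits and oxygen sensors, 6 were called higher and 1 lower, with a median of 0.35. *Hif1a* had 5137 ± 317 normalized reads in WT and 8785 ± 55.9 in N275D (SD, n = 3 each), which is 0.78 higher on the log2 scale. *Arnt* rose by 0.32 and *Egln3*, a HIF prolyl hydroxylase, by 0.45 on the same scale. *Epas1*, which encodes HIF-2α, rose by 1.45 from only 20.4 ± 3.43 normalized reads (SD, n = 3), and *Vhl*, the ligase subunit that marks HIF-α for destruction, fell by 0.33 on the log2 scale (each called at an adjusted p under 0.05 from limma). Of 29 genes tested from a list of other hypoxia-induced genes, 18 were called higher and 8 lower, with a median of 0.37. *Egln3* is in both lists and is counted in each. *Selenbp1* (1.53), *Bhlhe41* (1.29) and *Zfp395* (1.24) rose most, and *Hilpda* (-1.32), which holds back lipid breakdown, *Pfkfb3* (-0.84), which drives glycolysis, and *Car12* (-0.66), a carbonic anhydrase, fell most. Over all genes tested, 24.7% were called higher and 26.1% lower, and no test set the list against them.

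**Figure D4:**
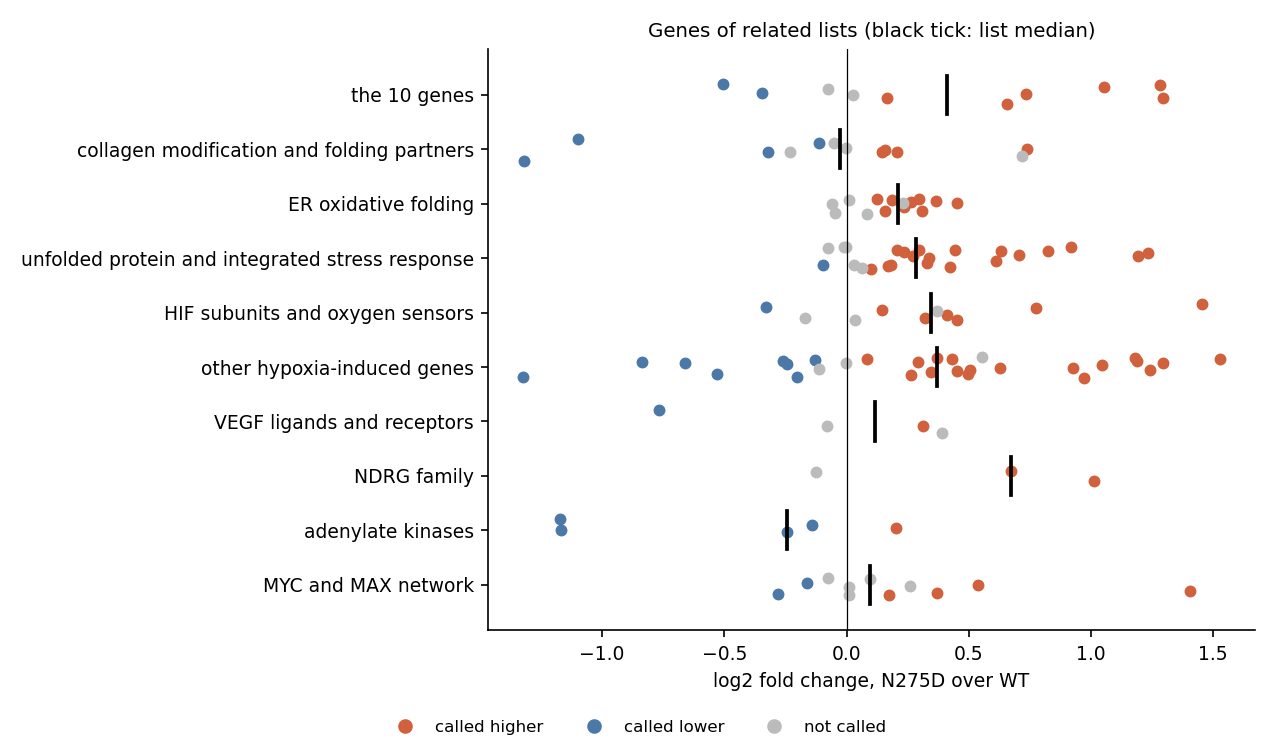
Log2 fold change of N275D over WT (horizontal axis) for the tested genes of each list, 1 point per gene, coloured by whether it was called higher, called lower or not called at an adjusted p of 0.05. Black ticks are list medians, which run from -0.24 for the adenylate kinases to 0.67 for the NDRG family, and the 10 genes have a median of 0.41.

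The CD4+ T cells had been enriched by magnetic depletion of other cells before culture. Markers of other cell types were measured beside these results, and their part in them was not tested. The fibroblast markers *Col1a2*, *Col3a1*, *Sparc* and *Pdgfra*, of a cell type rich in collagen hydroxylases, had means of at most 5.34 normalized reads in either genotype. The summed level of the 10 fibroblast markers in the table was 5522 to 6326 normalized reads in the WT libraries and 6790 to 7214 in the N275D libraries, most of it *Lum* (5640 ± 420.0 and 6456 ± 198, SD, n = 3 each). Of 6 fibroblast markers tested, 3 were called higher and 1 lower, beside 24.7% and 26.1% of all genes tested. The called markers were *Fn1*, which encodes fibronectin (185 ± 16.9 in WT and 417 ± 18.9 in N275D, log2 fold change 1.17), *Dcn* (26.7 ± 3.38 and 40.2 ± 9.21, 0.55), *Lum* (0.20) and *Fap* (63.0 ± 9.21 and 33.6 ± 1.79, -0.88), in normalized reads (SD, n = 3 each). The 10 myeloid markers summed to 91.8 to 111 in WT and 107 to 134 in N275D, with 1 of 3 tested called higher and 1 lower. The 7 B cell markers summed to 1130 to 1168 in WT and 1722 to 1779 in N275D, most of it *Ebf1*, with 5 of 6 tested called higher, and *Ms4a1* had at most 5.96. The CD8 markers summed to 118 to 142 and 172 to 179, with 1 of 2 called higher. The 3 endothelial markers in the table summed to 281 to 352 and 396 to 447, nearly all of it *Pecam1*, which T cells also express and which was called higher, and *Kdr* had means of at most 0.673.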

How the data were processed

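RNA-seq of 3 WT and 3 N275D Th17 libraries was analysed, with genotype and replicate taken from the sample labels. According to the study's methods, reads were trimmed, aligned to mm10 with STAR, counted with featureCounts and compared with DESeq2, with tool versions and the counting of strand not given in the sources used here. The labels and the methods name different directional library kits. The deposited signal is what the authors obtained by scaling each library's reads with a single size factor, since 100% of the values in each library were whole multiples of that factor within 1e-06, which gave the reads back. The table also holds the authors' log2 fold changes, q-values (adjusted p-values) and group averages, which were deposited with it and not used here.

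The test was limma (version 3.58.1, R 4.3.3) with a trended prior (12.0 degrees of freedom) on log2(normalized reads + 1) for genes with a mean of at least 10, adjusted by the Benjamini-Hochberg method over all 11908 genes. Fold changes on this scale are slightly understated for low genes. Single ratios used the exact permutation test. Alternatives changed the pseudocount (0.1 or 10), the minimum mean (above 0, or 100), the scaling (quantile or TMM), the prior (untrended eBayes), the weights of libraries and the block by replicate number, left out each library in turn, or tested the whole reads with DESeq2 (1.42.0) or edgeR (4.0.16). Code was first tested on simulated data. The 10 genes and the lists were chosen with earlier results of these data known. The 10 genes are all named, and from each list up to 3 called genes with the largest rise and 3 with the largest fall, with *Hif1a*, *Arnt* and the partners in ratios. Some genes that this rule names are not reported here. Exon lengths and coordinates are from GENCODE M21 (GRCm38, the build mm10), with a length for 98.1% of the genes tested. Replicate numbers do not pair the samples by any label.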

Additional observations from a re-analysis of the deposited data

How the results depend on the processing

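Of the 10 genes, 9 kept their direction where called and their side of the threshold in all 17 alternative fits. *P4ha1* had an adjusted p between 0.00131 and 0.0472 over them and *Vegfa* between 0.0557 and 0.418. The fold change of *Plod1*, never called, ran from -0.11 to 0.13. *Ankrd37* lost its call in 6 fits: besides those without a library, its adjusted p was 0.122 from untrended limma and just over the threshold, 0.05 when rounded, with all genes of a mean above 0 tested, and its adjusted p over all 17 ran from 4.89e-05 to 0.122. The count of genes called lower among the 10 was then 1 in place of 2 in these last fits, and ran from 1 to 2 when each library was left out. The cause was not tested. With a minimum of 2-fold, 427 of 11908 genes and 3 of the 10 were called, and these 3 were so in every fit. The count at 2-fold over all genes ran from 162 (mean of at least 100) and 259 (pseudocount 10) to 703 (mean above 0). The replicate number as a block gave 8 calls among the 10 and 5727 over all genes, in place of 6056. Correlations of deviations between same-numbered libraries were -0.05, 0.04 and -0.08, and those between libraries of different numbers ran from -0.05 to 0.09. These values showed no pairing by number, but with 3 libraries per genotype a weak pairing could not be seen. Groups of 3 libraries limit each exact test to p = 0.1, and the fewest reads, 117 for *Plod1*, limit what could be seen there.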
